A study of Homo sapiens with 13 samples.

Results

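TEAD4-only regions are places on the genome of MDA-MB-231 cells, an established human breast cancer line, where the TEAD4 peak list had a site and the YAP, TAZ and JUN lists had none. They were chosen by the deposited peak lists themselves: peaks of the 4 lists that overlapped by at least 1 bp were merged, and regions with a TEAD4 peak and no peak of the other lists were kept. This gave 855 of 28100 merged regions (3.04%, exact binomial 95% interval 2.84 to 3.25) and 10.3% (9.67 to 11) of the 8289 regions with TEAD4. Each of the 855 held exactly 1 TEAD4 peak. Intervals on shares here are exact binomial (Clopper-Pearson) 95% intervals, cover counting error only, and treat regions as independent although neighbouring regions share a stretch of genome.

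TEAD4 is one of the TEAD transcription factors, the DNA-binding proteins through which the Hippo pathway acts on genes. TEAD proteins bind DNA by their own domain and recruit the coactivators YAP and TAZ, which have no DNA-binding domain; when Hippo signalling keeps YAP and TAZ out of the nucleus, TEAD proteins can remain on DNA with other cofactors such as VGLL4. JUN is a subunit of AP-1, a dimeric factor with a DNA motif of its own that is often found beside TEAD motifs in enhancers of epithelial cancers.

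The series holds 13 libraries made by chromatin immunoprecipitation and sequencing (ChIP-seq) from MDA-MB-231 cells grown in medium with serum, with no treatment or genetic change given in the labels: 2 for TEAD4, made with the TEF-3 (N-G2) antibody (TEF-3 is another name of TEAD4), 2 each for JUN, YAP and TAZ, 3 with mouse IgG and 2 with rabbit IgG. The TEAD4 list was made against pooled mouse IgG, the JUN list against a pool that shares 1 mouse IgG library with it, and the YAP and TAZ lists against pooled rabbit IgG. Each factor has a single list from its 2 replicates, so no value below has a spread between replicates. A region is TEAD4-only as far as the lists go: TEAD4 and the coactivators differ in antibody, IgG control and, by the raw file names in the labels, sequencing run. A site below the limit of a list cannot be told apart from a site without the protein. Because the lists chose the members, TEAD4 strength and distances to other peaks are given as descriptions without a test.

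TEAD4-only regions were sites of low TEAD4 signal. Their fold enrichment over IgG, the authors' value for each peak, had a median of 5.86 (quartiles 5.29 to 6.65, range 2.90 to 13.0), against 7.49 (5.98 to 9.95, range 3.37 to 33.0) at the 7551 TEAD4 peaks in regions with another factor. The median −log10 p was 31.9 in TEAD4-only regions and 51.3 in the others. TEAD4-only peaks were also narrower, with a median width of 407 bp against 517 bp. Their summit lay near the middle, at a median of 0.494 of the peak's width, as in the others (0.496).

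Regions with TEAD4 and JUN but neither YAP nor TAZ had nearly the same values. Their 690 TEAD4 peaks had a median enrichment of 5.86 (quartiles 5.28 to 6.62) and a median −log10 p of 31.7. The enrichment at regions with TEAD4, TAZ and JUN was 6.14, that with TEAD4, YAP and JUN 6.13, that with TEAD4 and YAP alone 6.71, and that with TEAD4 and TAZ alone 7.20. Regions with TEAD4, YAP and TAZ but no JUN reached 8.05, and regions of all 4 factors 8.24. The medians thus lay lowest where both coactivators were unlisted, with or without JUN. The fewest ChIP fragments at a peak were 58 or 59 in each class, while the upper quartile of enrichment differed. It was 6.65 in TEAD4-only regions and 11.1 in 4-factor regions. None of these differences was tested.

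The number of ChIP fragments stacked at a peak's summit and the local IgG background were solved from its enrichment and p, by the definitions that MACS2 uses. A second solution existed at 213 TEAD4, 1258 YAP, 2411 TAZ and 3 JUN peaks, where the one nearer to a whole fragment count was taken. Background is given on the scale of the pooled IgG libraries. Solved this way, all 8406 TEAD4 peaks gave a whole number of fragments to within 0.02, once the scaling of 0.939 per TEAD4 fragment was taken out. The fewest fragments at any listed TEAD4 peak were 58, against 91 for JUN, 46 for YAP and 44 for TAZ. TEAD4-only summits held a median of 76 fragments (quartiles 68 to 89, range 58 to 281), against 102 (81 to 142, range 58 to 386) at the other TEAD4 summits. Counting error alone was wide at such depths: an exact Poisson 95% interval was 47.5 to 79.5 for a member with 62 fragments and 141 to 192 for the one with 165. The local background had a median of 11 in TEAD4-only regions and 12 in the others. It stood at the genome-wide level of 8.66 in 19.6% (17.0 to 22.5) of TEAD4-only peaks and 15.2% (14.4 to 16.0) of the others.

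The share of TEAD4-only sites climbed with falling peak strength. When TEAD4 peaks were ranked by p and split into 10 parts of equal size, the strongest part held 0 TEAD4-only peaks of 840 (at most 0.438%). The next held 2, the third 20 (2.38%, 1.46 to 3.65) and the fourth 31 (3.69%). In the fifth part the share was 8.32% (6.55 to 10.4), in the seventh 13.9% (11.6 to 16.4) and in the weakest 25.7% (22.8 to 28.8). In all, 732 of the 855 (85.6%, 83.1 to 87.9) lay in the weaker 50% of the list and 53 in the strongest 40%. TEAD4 with JUN but no YAP or TAZ followed the same course, at 0.238% in the second part and 21.2% (18.5 to 24.1) in the weakest. The share of peaks in 4-factor regions was 68.2% in the strongest part, 75.5% in the second and 70% in the third, and fell from part to part after that, to 25.1% in the weakest.

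**Figure D1:**
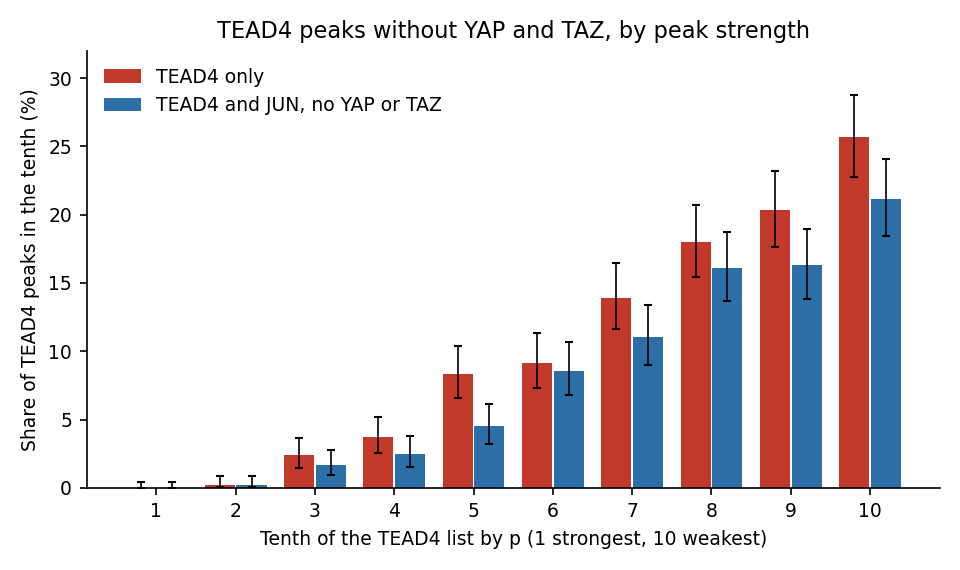
Share of TEAD4 peaks (y axis, percent) that lay in TEAD4-only regions and in regions with TEAD4 and JUN but no YAP or TAZ, in 10 equal-sized parts of the TEAD4 peaks ranked by p (x axis, 1 strongest). Bars start at 0 and lines are exact binomial 95% intervals. The TEAD4-only share is 0 in the strongest part and 25.7% in the weakest, with TEAD4 and JUN at 21.2%.

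Among peaks of like p, TEAD4-only peaks and the others had medians of fragments and enrichment close to each other. Fragments and background were solved from enrichment and p, so grouping by p ties these values together and part of this closeness is built in. In the weakest part, TEAD4-only peaks had a median of 67 fragments and an enrichment of 5.21, against 68 and 5.09 for the other peaks. In the eighth part they had 75 fragments and 6.12, against 78 and 5.82. Width differed in the same direction in each of parts 4 to 10, for example 386.5 bp in TEAD4-only peaks against 418 bp in the others in the weakest part and 405 bp against 446 bp in the eighth. Part 3 ran the other way, with 651.5 bp in 20 TEAD4-only peaks against 559.5 bp in the others.

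A few TEAD4-only sites were strong. The highest, on chromosome 15 at 93460876 to 93461547 (hg19, as are all positions here), had an enrichment of 13.0 and a −log10 p of 117, from 165 fragments over a background of 11. It lay 10442 bp from the nearest JUN peak and over 100 kb from the nearest YAP or TAZ peak. The next, on chromosome 17 at 5185212 to 5185579, had 12.8-fold enrichment from 131 fragments, and its nearest listed peak of any other factor, JUN, was 43831 bp away. These were the 2 members in the strongest 20% of the list. The third, on chromosome 8 (95369886 to 95370278), had 11.1-fold enrichment and 115 fragments and lay 53628 bp from JUN. The others of the 10 most enriched members had enrichments of 10.2 to 10.8 and 104 to 142 fragments. They were chr3:49506434-49507198, chr2:232526885-232527732, chr1:16161158-16161664, chr11:10829776-10830768, chr7:4784360-4784826, chr7:2729685-2730191 and chr19:5315105-5315620. Of these 7, 3 had a JUN peak within 1 kb, at gaps of 158, 814 and 984 bp, so strong TEAD4-only sites included some beside a JUN site and some far from any.

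At the other end, the weakest member by p, on chromosome 1 at 95501074 to 95501482, had 69 fragments over a background of 12.6 (4.82-fold, −log10 p 24.7). The other 4 of the 5 weakest had 60 to 66 fragments and enrichments of 5.08 to 5.44. The narrowest member, on chromosome 3 at 37247608 to 37247876, was 269 bp wide and rested on 58 fragments, the fewest of any TEAD4 peak. The 5 weakest members differed in their setting, with the nearest other peak between 302 bp and 437212 bp away.

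A small set of members stood on high IgG background. In 38 TEAD4-only regions (4.44%, 3.16 to 6.05) the background was 20 or more, against 385 of the other TEAD4 peaks (5.10%, 4.61 to 5.62). Of those 385, 171 came from regions with TEAD4 and TAZ alone (35.8% of that class), and the other 6 classes stood at 0.833% to 3.97%, below the TEAD4-only share. These differences were not tested. The 38 had a median of 156.5 TEAD4 fragments, an enrichment of 3.98 and a width of 722.5 bp, while the 817 members below that level had 75 fragments, 5.94-fold enrichment and 405 bp. The other TEAD4 peaks with such a background had 214 fragments and 7.26-fold enrichment. The background was highest on chromosome 11 at 62608725 to 62609528, with 281 TEAD4 fragments over 85 and an enrichment of 3.08. Next came chromosome 1 at 149223507 to 149224189, with 221 fragments over 71, the lowest enrichment in the whole TEAD4 list (2.90). After these came chr12:120729034-120730097 (229 fragments over 63), chr1:28974777-28975722 (244 over 60) and chr17:8076265-8077177 (236 over 55). These 5 were named after their values were seen. TEAD4-only peaks were 38 of the 423 TEAD4 peaks with a background of 20 or more (8.98%, 6.44 to 12.1), 12 of 48 at 40 or more (25%, 13.6 to 39.6) and 6 of 15 at 50 or more (40%, 16.3 to 67.7), beside 10.2% of all TEAD4 peaks.

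These high-background members also made up part of the strong end by p. Of the 53 members in the strongest 40%, 11 (20.8%, 10.8 to 34.1) had a background of 20 or more, against 3.37% (2.23 to 4.86) of the 802 weaker members. Those 11 had a median enrichment of 5.46 and 230 fragments, and the other 42 had 9.42 and 117.5. The rise of p with background was not particular to members. At the other TEAD4 peaks the median −log10 p was 112 at a background of 20 or more and 46.6 at the genome-wide level. For members these medians were 40.7 and 31.1. A pair on chromosome 17, at 56736103 to 56736878 and 56708569 to 56709471, had a −log10 p of 90.6 and 90.0 from 228 and 230 fragments, with enrichments of only 5.81 and 5.71 over backgrounds of 36 and 37. The 5 strongest members by p thus included this pair, which was not among the 10 most enriched. What made the IgG signal high at these sites was not tested.

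**Figure D2:**
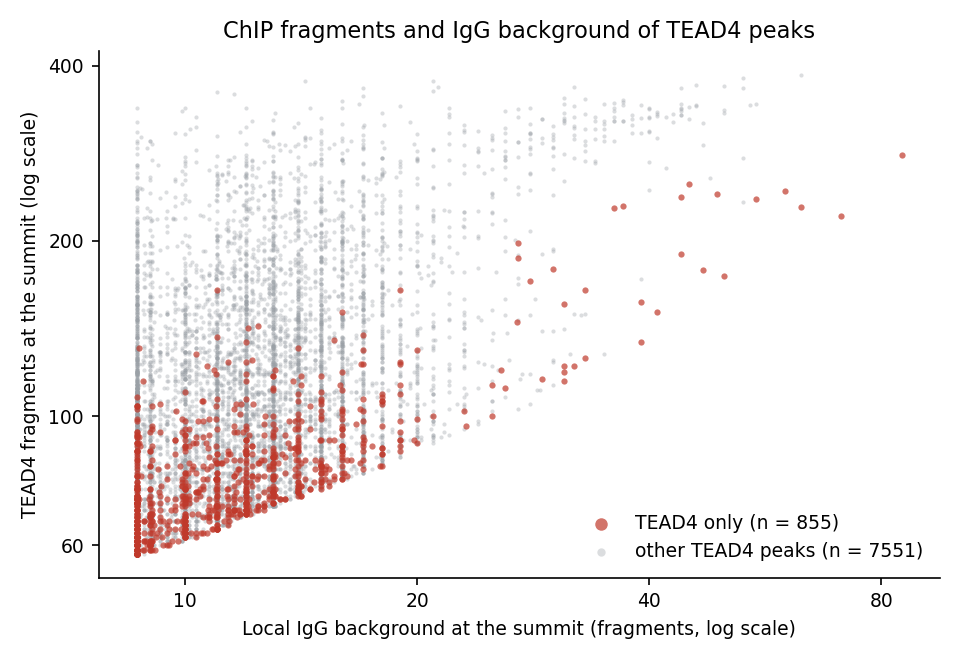
TEAD4 fragments at the summit against the local IgG background, both on log scales, for the 855 TEAD4-only peaks and the 7551 other TEAD4 peaks; each point is 1 peak. Most TEAD4-only peaks sit near the lower edge set by the list, and 38 of them have a background of 20 or more, up to 85.

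Across the members, fragments went with background (Spearman rho 0.61 over 855 peaks) and enrichment went against it (rho −0.60). At the other TEAD4 peaks rho was 0.40 for fragments and −0.24 for enrichment (7551 peaks). These values share fragments and background by construction and describe peaks of 1 list. The lower edge of the list, which asks for more fragments where the background is higher, also enters them.

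The nearest site of another factor was mostly JUN, the longest list. JUN was nearest at 685 of the 855 regions (80.1%, 77.3 to 82.7), and JUN peaks were 58.4% of all YAP, TAZ and JUN peaks. The 58.4% counts YAP and TAZ peaks separately where both lie in a region, as in the 4284 regions of all 4 factors. It is thus not JUN's share of distinct sites. The median gap from a TEAD4-only region was 17747 bp to JUN (quartiles 4576 to 60342), 59963 bp to TAZ (16990 to 148288) and 80999 bp to YAP (23387 to 205435). The nearest other TEAD4 region was 62982 bp away (16780 to 167093). A peak of any of YAP, TAZ and JUN lay within 1 kb of 9.36% of the members, within 10 kb of 42.1% (38.8 to 45.5) and within 100 kb of 88.7% (86.3 to 90.7).

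Spacing around TEAD4-only regions was close to that around most classes missing the same factor. Regions with TEAD4 and TAZ alone stood apart in distance to JUN and to other TEAD4 regions, but not to YAP. YAP or TAZ lay within 10 kb of 19.6% (17.0 to 22.5) of TEAD4-only regions and 22.6% (19.6 to 26) of TEAD4 and JUN regions, and of 20.3% (19.7 to 20.9) of regions with JUN alone. JUN lay within 10 kb of 38.6% (35.3 to 42.0) of TEAD4-only regions and 41.2% (38.4 to 44.0) of regions with TEAD4, YAP and TAZ. It was less frequent, at 30.2% (26 to 34.6), near regions with TEAD4 and TAZ alone. YAP lay within 10 kb of 14.5% (12.2 to 17.0) of TEAD4-only regions and 13.7% (10.7 to 17.1) of regions with TEAD4 and TAZ alone. Another TEAD4 region lay within 10 kb of 17.9% (15.4 to 20.6) of TEAD4-only regions, 18.6% (15.7 to 21.7) of TEAD4 and JUN regions and 17.2% (16.6 to 17.8) of regions with JUN alone. It did so for 21.7% (19.4 to 24.1) of regions with TEAD4, YAP and TAZ, 26.5% (25.2 to 27.8) of 4-factor regions and 38.4% (33.9 to 43.0) of TEAD4 and TAZ regions. None of these differences was tested.

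**Figure D3:**
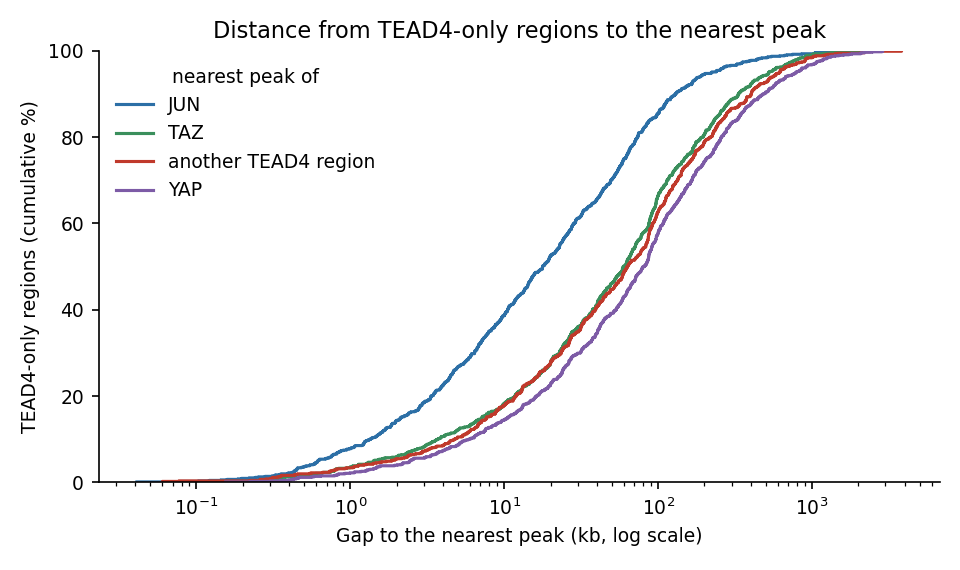
Cumulative share of the 855 TEAD4-only regions (y axis, percent) by the gap to the nearest peak of JUN, TAZ or YAP and to the nearest other TEAD4 region (x axis, kb, log scale). The medians are 17747 bp for JUN, 59963 bp for TAZ, 62982 bp for another TEAD4 region and 80999 bp for YAP.

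The nearest TEAD4 region was of every class. It held all 4 factors for 419 members (49.0%, 45.6 to 52.4), and 51.7% of all TEAD4 regions are of that class. It was another TEAD4-only region for 106 (12.4%, 10.3 to 14.8), against 10.3% of TEAD4 regions. The TEAD4-only share among the nearest regions had an interval that took in its share of the list only at its lower end.

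Strength changed little with distance. Members with YAP or TAZ within 10 kb (168) had a median enrichment of 5.74 and 77 fragments, and the 192 with JUN alone within 10 kb had 5.97 and 77.5. The 495 with neither had 5.94 and 76 fragments. The 97 regions with no other factor within 100 kb (11.3%, 9.30 to 13.7) had 5.83-fold enrichment and 70 fragments. The most isolated, on chromosome 11 at 134136429 to 134137335, lay 1379661 bp from the nearest JUN peak, which was the closest of the 3 factors, and had 101 fragments and 7.49-fold enrichment. The next 4 were chr7:53710040-53710485, chr9:15253212-15253563, chr2:199480697-199481021 and chr2:51848010-51848379, with gaps of 517025 to 1062598 bp and 62 to 74 fragments.

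The number of members depended on the overlap asked for: it was 1269 with a reciprocal overlap of 50% and 1051 with summits within 200 bp. Just inside the rule as used, 10 members had another factor's peak within 200 bp of theirs. The smallest gap was 41 bp, to a JUN peak, on chromosome 6 at 26026938 to 26027613 (4.26-fold, 120 fragments over 25.7). The next were 77 bp to JUN at chr9:111872294-111872697, 93 bp to TAZ at chr6:30710529-30711318, 103 bp to JUN at chr14:89080820-89081214 and 118 bp to TAZ at chr19:17447321-17447809. Just outside it, the smallest overlap in bp, for the best-overlapping pair of peaks in a region, was 241 bp, with TAZ on chromosome 14 (TEAD4 peak 45169333 to 45169799, 6.58-fold). The next were 254 to 267 bp, on chromosomes 20, 4, 12 and 13, with TEAD4 enrichments of 5.00 to 5.94. In each of these 4 the overlap spanned the whole TEAD4 peak, so a small overlap in bp there marks a narrow peak.

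Whether weaker YAP, TAZ or JUN signal sat at these regions could be read only in part. Peak names carry numbers that ascend along each chromosome in all 4 lists, with gaps that were read as candidate peaks not listed. Between the listed peaks on either side of a TEAD4-only region, the median number of unlisted candidates was 7 for YAP, 7 for TAZ and 5 for JUN, over median stretches of 508098, 392200 and 121355 bp. No place for an unlisted candidate was left at 4 of 847 regions for YAP (0.472%, 0.129 to 1.20), 2 of 851 for TAZ (0.235%) and 14 of 853 for JUN (1.64%, 0.900 to 2.74). For YAP and TAZ together it was 1 of 847. For all 3 factors at once the count was 0 of 847, with an upper bound of 0.435%. At TEAD4 and JUN regions the counts were 0 of 688 for YAP and 2 of 688 for TAZ. Given the length of these stretches, the counts say little of the regions themselves.

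TEAD4-only regions were spread over all 23 chromosomes in the lists. Their share of the TEAD4 peaks was 10.2% over the genome. It was 13.9% (11.4 to 16.8) on chromosome 2, with 91 members, and 5.30% (3.39 to 7.85) on chromosome 10, with 23, both intervals lying off the genome-wide value. Intervals were not adjusted for the 23 chromosomes compared. On chromosome 11 it was 7.04% (4.80 to 9.90). The smaller chromosome 21 had 15.6% (8.32 to 25.6) from 12 members, and X had 14.8% (8.98 to 22.3) from 18. The median IgG background over TEAD4 peaks was 10 on chromosome 2, 12 on chromosome 10, 12.9 on chromosome 11 and 8.66 on chromosomes 21 and X. Other chromosomes did not keep this order. The background was 9 on chromosome 22, with a share of 7.87%, and 12.2 on chromosome 17, with 12%. It was highest on chromosome 20, at 15.1, where the share was 9.57%. The part of background in these shares was not tested.

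**Figure D4:**
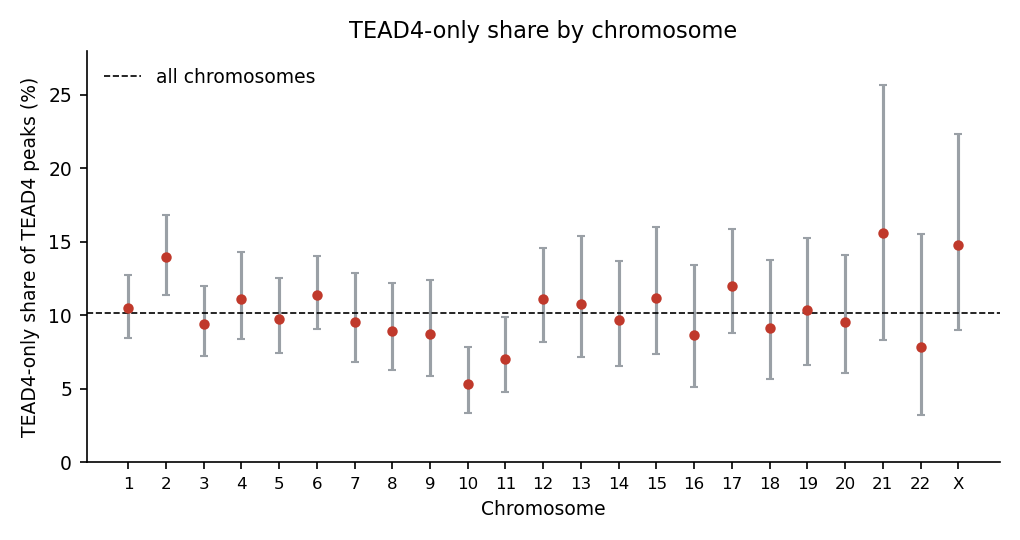
Share of TEAD4 peaks that were TEAD4-only (y axis, percent) on each chromosome (x axis), as points with exact binomial 95% intervals; the dashed line is the share over all chromosomes, 10.2%. Chromosome 2 (13.9%) lies above the line and chromosomes 10 (5.30%) and 11 (7.04%) below it, intervals included.

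Most members were the only TEAD4-only region in their bin of 1 Mb. They were often near other sites, as another TEAD4 region of any class lay within 100 kb of 62.7% (59.4 to 65.9) of them. Of the 689 bins of 1 Mb that held any member, 550 held 1, 117 held 2, 19 held 3, 2 held 4 and 1 held 6. Bins with 3 or more together held 71 members (8.30%, 6.54 to 10.4). The densest bin, with 6, was chromosome 6 from 26000001 to 27000000. It held 29 TEAD4 peaks in all. Its 6 TEAD4-only peaks had enrichments of only 3.40 to 5.22 over backgrounds of 14.3 to 41. Among them was the widest member of all, 2605 bp at 26156512 to 26159116, with 151 fragments over 41. The 100-kb window with the most members, 3 of its 5 TEAD4 peaks, was the first of this bin (26000001 to 26100000). The bins with 4 members were on chromosome 15 (70000001 to 71000000) and chromosome 4 (157000001 to 158000000). Their backgrounds were lower, 8.66 to 11 on chromosome 15 and 8.66 to 15 on chromosome 4.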

How the data were processed

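The submitters' processing notes name hg19 as the build, with CASAVA, Bowtie (0.12.7), SAMtools and MACS2 (2.0.10). Per the labels, each factor's peaks come from an IDR (irreproducible discovery rate) workflow with pooled IgG as control, and the deposited lists carry an IDR of 0.01. Libraries were grouped by the factor in their titles or the IgG in the antibody label. The deposited lists give for each peak the summit offset, the fold enrichment over IgG (a ratio) and the −log10 p-value, with no values per replicate.

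From these, peaks were merged and regions classed in Python 3.11.15 (pandas 2.3.3, scipy 1.17.1). Fragments and background were solved per peak from enrichment = (pileup + 1) / (background + 1) and the upper Poisson tail of p. The merging and solving steps were checked on simulated data made by these same definitions, with well separated regions whose peaks overlapped almost fully. This checks the calculation. It cannot show that the deposited values follow the definitions, nor does it cover small overlaps or gaps. The solution was planned on condition that pileups came out whole. For TEAD4 and JUN this held after dividing by a fitted scale, and over the 4 lists at 99.99% or more of peaks. Fragment counts may include PCR duplicates, so Poisson intervals cover counting error only.

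Regions named are the extremes of enrichment, p, width and distance, those next to the edge of the rule and the densest bins. Those of highest background, the background limits of 20, 40 and 50 and the comparison of the strongest 40% were added after the values were seen. The members and lists were chosen with earlier results of these data known. Genes, motifs and sequences were not analysed here, as the gene table at hand is on GRCh38.p14.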

Additional observations from a re-analysis of the deposited data

How the results depend on the processing

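Of 183 alternative values of 6 results, 165 stayed within 1.5 times the count or within the 95% interval of the reported value. Of the 183, 138 came from leaving out 1 chromosome at a time, which removes at most 91 of the 855 members. Such values have little room to move, and a share of 0 stays 0 in any subset of members. The 18 values that moved were all among the other settings. The number of TEAD4-only regions depended on list length: 1375 with lists of equal length (7709 peaks), 2599 with the stronger 50% of the YAP, TAZ and JUN lists, and 123 with the stronger 50% of the TEAD4 list. It was 1269 with a reciprocal overlap of 50% and 1051 with summits within 200 bp. The share in the weaker 50% of the list was 79.9% with reciprocal overlap and 81.7% with equal lists, which also gave a median enrichment of 6.20. The weaker 50% was that of the full TEAD4 list in each case. Equal lists leave out the weakest TEAD4 peaks by p, which bears on both of their values. The share with another factor within 10 kb was 61.0% with reciprocal overlap, 52.9% with summits within 200 bp, 52.2% with peaks narrowed to 200 bp, 36.1% without regions within 1 kb of another list, 25.5% with equal lists and 28.7% with the stronger 50% of the other lists. Shorter lists hold fewer peaks that could lie nearby. Asking for more overlap or closer summits adds members that overlap another factor's peak, and these count as within 10 kb. The part of each in these shares was not tested. At 1, 5, 50 and 100 kb that share was 9.36%, 29.6%, 74.5% and 88.7%. Regions with no place for an unlisted candidate, 0 for all 3 factors, were 0.472% for YAP alone and 1.64% for JUN alone. No value moved past these limits when chromosomes were left out in turn, or without chromosome 6 from 26 to 29 Mb, or, added after seeing the data, without backgrounds of 20 or more. Replicates could not be left out in turn, each factor having a single list. No paired analysis was possible because replicate-level values are not in the files used here. Counts at the summit limit precision: the median member has 76 fragments. Sites of the other factors below their lists' limits are not seen.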
